A study of Homo sapiens with 18 samples.

Results

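The comparison described here set the Ewing sarcoma cell line ES8 against the alveolar rhabdomyosarcoma cell line Rh30 at baseline, and its members were 6 of the 18 RNA-seq libraries of the series: the 3 parental ES8 libraries and the 3 parental Rh30 libraries that carried a non-targeting guide RNA (sgCTL). All 6 came from cells transduced with dCas9-KRAB, a catalytically dead Cas9 fused to a transcriptional repressor, then transduced with the guide by lentivirus and kept in puromycin for 72 hours, so both lines carried the silencing machinery and had passed drug selection. Neither line carried a guide against DNAJC17 or the DNAJC17 allele lacking its RNA-recognition motif (ΔRRM), which mark the other 12 libraries. Each tumour type was represented by 1 cell line, so a difference between the lines cannot be told apart from a difference between the tumour types. The cells were plated in triplicate, and p-values therefore measure the spread between these libraries, which may be technical.

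Ewing sarcoma is a bone and soft tissue tumour driven by a fusion of EWSR1, an RNA-binding protein, with an ETS family transcription factor, most often FLI1. The fusion protein binds GGAA repeats and ETS sites and switches on genes such as NR0B1 and NKX2-2 while silencing others. Alveolar rhabdomyosarcoma is a soft tissue tumour with the features of arrested skeletal muscle differentiation, in which PAX3 or PAX7, regulators of muscle progenitors, are joined to FOXO1, and the fusion drives MYOD1, MYOG, FGFR4 and other genes of the muscle lineage. ES8 carries an EWSR1-FLI1 fusion and Rh30 a PAX3-FOXO1 fusion. Counts were summed per gene, so reads from a fusion transcript and from the intact partner gene cannot be told apart.

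The ES8 libraries held 41436314 to 44814879 counts and the Rh30 libraries 41720955 to 45934827. Levels are given below as CPM (counts scaled to the library size) after TMM scaling, and differences as log2 of ES8 over Rh30 with the standard error (SE) of the edgeR fit, so a positive value means higher in ES8. Calls needed both a fold of at least 2 and an adjusted p below 0.05. Of 17925 genes tested, 9129 (50.9%) were called, 5148 (28.7%) of them higher in ES8 and 3981 (22.2%) higher in Rh30, and the median log2 difference of all genes tested was 0.07. Scaling by library totals alone moved that median by 0.21 toward ES8. Where 2 levels are set against each other, the ES8 mean of 3 libraries comes first and the Rh30 mean second. Over the 3 libraries, the SD of named genes at 1 CPM or more had a median of 4.2% of the mean in ES8 and 5.2% in Rh30. Each ES8 library had 17182 to 17333 genes with at least 10 counts and each Rh30 library 15455 to 15561, and genes of the mitochondrial genome took 1.10% to 1.13% of the counts in ES8 and 0.556% to 0.617% in Rh30. The part of these library-wide differences in the results below was not tested. These are bulk libraries, in which fewer cells of a type and less RNA per cell cannot be told apart.

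The genes switched on by EWSR1-FLI1 lay mostly on the ES8 side, and the fusion partners themselves were divided. FLI1 (ENSG00000151702, chr11:128686535-128813267 in GRCh38) was measured at 45.6, 43.6 and 45.9 CPM in ES8 and 0, 0.0473 and 0.0484 CPM in Rh30 (log2 difference 10.32 ± 0.17, edgeR adjusted p = 1.3e-39). All 3 ES8 libraries thus lay far above all 3 Rh30 libraries, while ES8 lay above without overlap for 45.8% of all genes tested. EWSR1 had 357 against 475 CPM and a log2 difference of -0.41 ± 0.04, under the fold requirement. ERG, the alternative ETS partner, had only 7 counts over the ES8 libraries and 0 over the Rh30 libraries and was not tested. PAX3 was measured at 26.3, 26.1 and 27 CPM in ES8 and 20.03, 16.4 and 19.1 CPM in Rh30 (log2 difference 0.52 ± 0.07, edgeR adjusted p = 8.4e-09), and FOXO1 had 7.6 against 12.7 CPM (log2 difference -0.74 ± 0.09). PAX7 was measured at 36.3, 36.7 and 36.3 CPM in ES8 and 0, 0 and 0.0242 CPM in Rh30, a level 4483-fold (95% counting interval 804 to 177095) higher in ES8.

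Of 31 EWSR1-FLI1 activated genes tested, 25 were called higher in ES8, 3 were called higher in Rh30 and 3 were not called (median log2 difference 5.63, or 4.23 with genes at 0 set to their bound). NKX2-2 (ENSG00000125820, chr20:21511010-21514026), a homeobox repressor used as a diagnostic marker of Ewing sarcoma, had 105, 98.9 and 104 CPM in ES8 and no count in any Rh30 library, which makes it at least 1402-fold higher in ES8 when the Rh30 libraries are set at a floor of 3 counts each. NR0B1 (ENSG00000169297, chrX:30304206-30309598), an orphan nuclear receptor, had 71.8, 71.1 and 70.2 CPM in ES8 and 0.0254, 0 and 0 CPM in Rh30, 8741-fold (95% counting interval 1568 to 345283) higher in ES8. The kinase gene PRKCB was at 173 against 0.0407 CPM (log2 difference 11.96 ± 0.14) and the membrane metalloreductase gene STEAP1 at 48.4 against 0.0165 CPM. The pluripotency factor SOX2 was at 100.2 against 0.0409 CPM, the glucuronosyltransferase gene UGT3A2 at 588 against 0.139 CPM and the lipase gene LIPI at 53.9 against 0.00788 CPM. CCND1, which encodes cyclin D1, was high in both lines and higher in ES8, at 942, 900.2 and 919 CPM in ES8 and 291, 270.2 and 263 CPM in Rh30 (log2 difference 1.74 ± 0.05, edgeR adjusted p = 9.1e-32).

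Some members of the same list did not separate the lines or ran the other way. CD99, the cell surface glycoprotein stained to diagnose Ewing sarcoma, had 341, 329.8 and 331 CPM in ES8 and 354, 369.8 and 338 CPM in Rh30, ranges that overlap, and a log2 difference of -0.08 ± 0.05. The Hedgehog effector GLI1 had 32.2 against 21.3 CPM and a log2 difference of 0.59 ± 0.06. TNC, the gene of the matrix protein tenascin C, was higher in Rh30, at 32.6, 37 and 34.7 CPM in ES8 and 1802, 1621 and 1716 CPM in Rh30 (log2 difference -5.62 ± 0.06, edgeR adjusted p = 1.0e-46), as were VRK1 and PLD1, at log2 differences of -1.60 and -1.94. Among genes that EWSR1-FLI1 is known to repress, of 9 genes tested, 1 was called higher in ES8, 8 were called higher in Rh30 and none were not called (median log2 difference -3.4). The Wnt inhibitor gene DKK1 had 0.252 against 18.9 CPM, PHLDA1 0.63 against 66.9 CPM, the thrombospondin gene THBS1 19.1 against 734 CPM and the matricellular gene CCN1 17.8 against 458 CPM.

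The plot of lineage genes by library shows these levels beside the muscle genes described next.

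**Figure D1:**
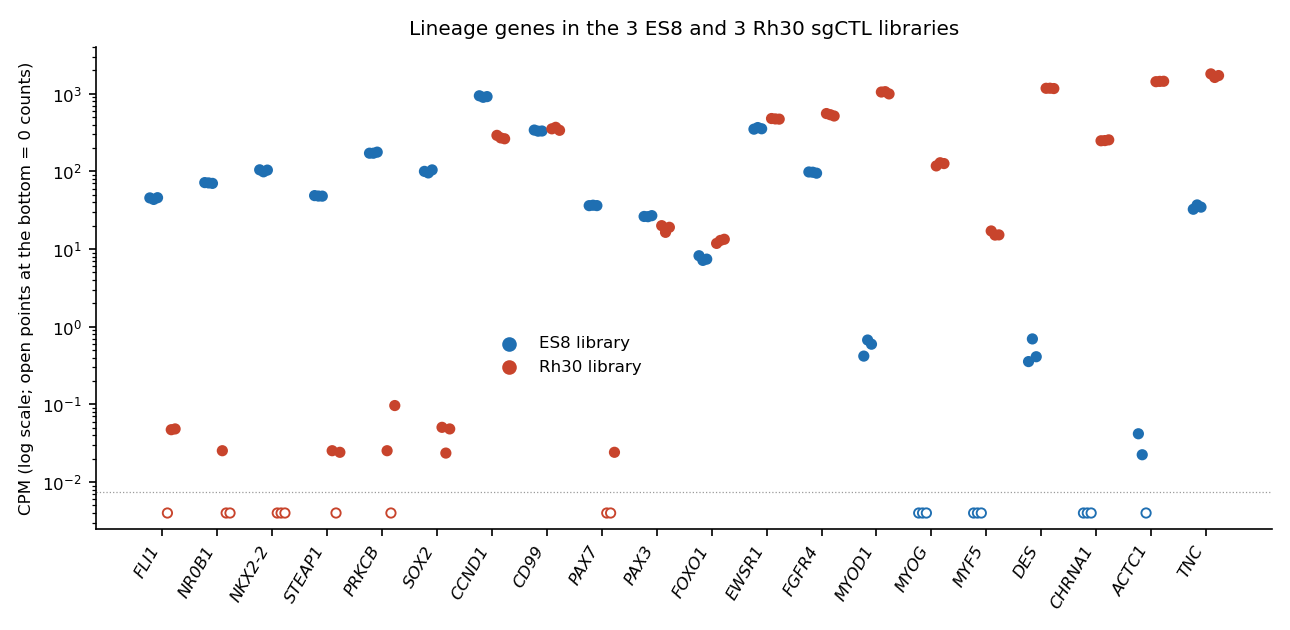
Expression of 20 lineage genes in CPM on a log scale, with 1 point for each of the 3 ES8 (blue) and 3 Rh30 (red) sgCTL libraries and open points at the bottom for libraries with 0 counts. FLI1, NR0B1, NKX2-2, STEAP1, PRKCB, SOX2 and PAX7 lie high in ES8 and at or near 0 in Rh30, MYOD1, MYOG, MYF5, DES, CHRNA1 and ACTC1 show the reverse, and CD99, PAX3, FOXO1 and EWSR1 lie close together in both lines.

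The muscle determination genes were carried by Rh30. Of 19 myogenic regulators tested, 2 were called higher in ES8, 13 were called higher in Rh30 and 4 were not called (median log2 difference -2.85). MYOD1 (ENSG00000129152, chr11:17719568-17722131), the master regulator of the muscle lineage, had 0.419, 0.675 and 0.596 CPM in ES8 and 1052, 1064 and 996 CPM in Rh30 (log2 difference -10.84 ± 0.09, edgeR adjusted p = 1.9e-50). MYOG (ENSG00000122180, chr1:203083132-203086036), which acts after MYOD1 to start terminal differentiation, had no count in ES8 and 118, 129 and 126 CPM in Rh30, at least 1944-fold higher. The groups did not overlap for either gene, as for 42% of all genes tested with Rh30 above and 45.8% with ES8 above. In Rh30 MYOD1 ranked 62 of 14274 protein-coding genes by level per length. MYF5, an early determination factor, had no count in ES8 and 15.8 CPM in Rh30, while MYF6, the late member of the family, had no count in any of the 6 libraries. The cofactor gene VGLL2 and MYMK, whose product fuses myoblasts, had no count in ES8 and 6.53 and 6.42 CPM in Rh30. PAX7 and the differentiation inhibitor ID2, at 139.6 against 22.7 CPM, were the 2 members called higher in ES8, against 4 with library totals alone.

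Targets of PAX3-FOXO1 were divided. Of 23 listed genes tested, 9 were called higher in ES8, 14 were called higher in Rh30 and none were not called (median log2 difference -2.42). FGFR4 (ENSG00000160867, chr5:177086886-177098144), a fibroblast growth factor receptor, had 98.4, 97.7 and 94.9 CPM in ES8 and 556, 537 and 517 CPM in Rh30 (log2 difference -2.47 ± 0.05, edgeR adjusted p = 3.3e-37), so ES8 also expressed it. The neuronal nitric oxide synthase gene NOS1 had 0.00698 against 40.5 CPM, the BMP antagonist gene GREM1 0.165 against 77.9 CPM and OLIG2, a neural transcription factor, 0.585 against 14.8 CPM. MYCN, a proto-oncogene listed as a target of the fusion, was higher in ES8, at 12.4, 13.5 and 15.4 CPM in ES8 and 6.19, 6 and 6 CPM in Rh30 (log2 difference 1.19 ± 0.09, edgeR adjusted p = 2.5e-15). The receptor kinase gene ALK had 1.26, 0.99 and 0.864 CPM in ES8 and 2.28, 1.77 and 2.47 CPM in Rh30 and a log2 difference of -1.06 ± 0.21, a call that ended at -0.94 without ES8 replicate C and at -0.97 without Rh30 replicate C. TFAP2B, DCX, CDH3 and NELL1 were also called higher in ES8, TFAP2B at 6.68, 6.08 and 7.55 CPM against no count in Rh30.

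Of 26 sarcomere and muscle effectors tested, 2 were called higher in ES8, 23 were called higher in Rh30 and 1 was not called (median log2 difference -7.28, or -6.21 with genes at 0 set to their bound). ACTC1, the cardiac actin gene expressed in immature skeletal muscle, had 0.0419, 0.0225 and 0 CPM in ES8 and 1431, 1443 and 1448 CPM in Rh30, 67621-fold (95% counting interval 23138 to 327902) higher in Rh30. CHRNA1 (ENSG00000138435, chr2:174747592-174787935), the muscle acetylcholine receptor subunit, had no count in ES8 and 248, 249.6 and 255 CPM in Rh30, at least 3919-fold higher, and RAPSN, which clusters that receptor at the synapse, had 0.014 against 212 CPM. DES, the muscle intermediate filament gene, had 0.356, 0.698 and 0.411 CPM in ES8 and 1176, 1179 and 1167 CPM in Rh30 (log2 difference -11.24 ± 0.09, edgeR adjusted p = 1.9e-50). The Rh30 libraries stood above the ES8 libraries for each of these genes, as for 42% of all genes tested. CAV3, MYBPH and CKM had 109.5, 15.2 and 1.68 CPM in Rh30 and 0.0285, 0 and 0.0722 CPM in ES8. MYOM2, a protein of the sarcomere's M-band, and ACTN2, an actinin of the Z-disc, were called higher in ES8, at 32.9 against 0.864 CPM and 10.1 against 0.691 CPM.

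Because MYOD1 and MYOG bind E-box motifs, promoter windows were searched for CAGCTG, an E-box that reads the same on both strands. The windows ran from 250 bases before to 50 bases after the RefSeq start (GRCh38.p14) and were matched by symbol to 12510 of the genes tested. The motif lay in 7 of 16 matched windows of the sarcomere and muscle effector list (43.8%), in 17.3% of the windows of all genes tested and in 17.7% of all 27305 windows. In the other lists searched, CAGCTG lay in 3 of 12 windows of the myogenic regulators (25%) and 6 of 25 of the EWSR1-FLI1 activated genes (24%). It lay in 21.6% of the 2723 windows of genes called higher in Rh30, 16.9% of the 3216 of genes called higher in ES8 and 15.8% of the 6571 of genes not called. The 7 windows are shown because they belong to the list with the lowest median difference, with the motif in capitals, 5′ to 3′ on the gene's strand, and ACTN2 is the only 1 of the 7 called higher in ES8:
TNNT2: ttatctgagCAGCTGgaggaccac
MYBPH: gccctccccCAGCTGggcaccagc
ACTN2: gccgcgcggCAGCTGctcgcagcc
CHRNA1: agggcagccCAGCTGtcgctccca
CAV3: tatgtgggaCAGCTGtcagccggc
CKM: tgagaggctCAGCTGccctccaga
DMD: acgttgtagCAGCTGcataataaa
These windows lie at chr1:201377882-201377905 for TNNT2, chr1:203176034-203176057 for MYBPH, chr1:236686475-236686498 for ACTN2, chr2:174764533-174764556 for CHRNA1, chr3:8733718-8733741 for CAV3, chr19:45322960-45322983 for CKM and chrX:33339490-33339513 for DMD. A match is a description of these letters and not evidence of binding. For EWSR1-FLI1 the tandem ETS motif GGAAGGAA was searched on both strands. It lay in 2 of 25 matched windows of the activated list (8%), beside 1 of 12 of the myogenic regulators (8.33%), 1 of 16 of the sarcomere and muscle effectors (6.25%) and 3.43% of the windows of all genes tested, and in 3.64% of those called higher in ES8 against 3.78% of those called higher in Rh30.

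Neural genes lay mostly on the ES8 side. Of 25 neural crest and neural regulators tested, 19 were called higher in ES8, 3 were called higher in Rh30 and 3 were not called (median log2 difference 2.84). TWIST2, a mesenchymal repressor, had 6.52, 8.57 and 8.51 CPM in ES8 and no count in Rh30, and HES1, a Notch effector, had 36.1, 36.4 and 37.8 CPM in ES8 and 0.456, 0.473 and 0.532 CPM in Rh30 (log2 difference 6.23 ± 0.12, edgeR adjusted p = 7.3e-38). The 3 members called higher in Rh30 were SNAI2, a driver of epithelial-mesenchymal transition, at 1.65 against 65.4 CPM, the cerebellar and dorsal patterning gene ZIC1 at 0.0693 against 28.8 CPM, and OLIG2. Of 20 neuronal effectors tested, 15 were called higher in ES8, 3 were called higher in Rh30 and 2 were not called (median log2 difference 6.71, or 5.02 with genes at 0 set to their bound). The neuropeptide genes GRP and NPY had 71.6 against 0.0912 CPM and 16.8 against 0 CPM, and GAP43, a growth cone protein, 14.6 against 0.00788 CPM. L1CAM, an adhesion molecule of axons, was higher in Rh30, at 10.1, 11.9 and 10.7 CPM in ES8 and 289, 264 and 261 CPM in Rh30 (log2 difference -4.64 ± 0.06, edgeR adjusted p = 4.0e-43). NCAM1 and TUBB3 were also called higher in Rh30, at log2 differences of -1.08 and -1.14, calls that ended at -0.87 and -0.93 when library totals alone were used for scaling.

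Among the HOX genes, which set position along the body axis, of 35 genes tested, 24 were called higher in ES8, 3 were called higher in Rh30 and 8 were not called (median log2 difference 2.27). HOXC12 had 68.2, 70.4 and 67.2 CPM in ES8 and 0.0761, 0 and 0.0484 CPM in Rh30 (log2 difference 10.62 ± 0.16, edgeR adjusted p = 7.3e-42). HOXA9, HOXC8 and HOXD3 had 10.4, 3.83 and 1.47 CPM in ES8 and 0.0407, 0.00806 and 0 CPM in Rh30. The 3 members called higher in Rh30 all belonged to the HOXB cluster: HOXB2 at 17.4 against 47.2 CPM, HOXB4 at 6.32 against 19.99 CPM and HOXB9 at 14.1 against 43.8 CPM.

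**Figure D2:**
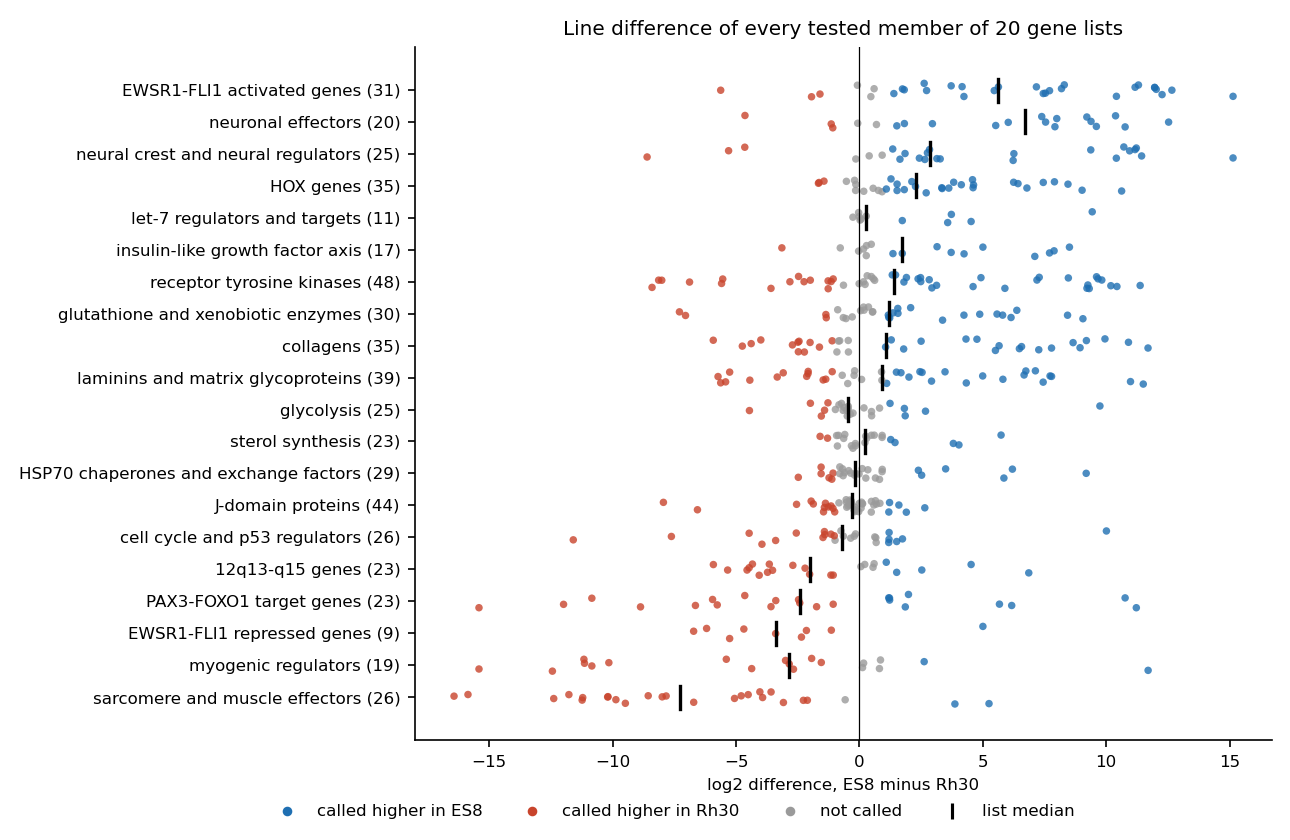
The log2 difference between ES8 and Rh30 for every tested member of 20 gene lists, with the number tested in brackets, coloured by call, and a black bar at each list's median. The EWSR1-FLI1 activated and neuronal lists lie to the right with medians of 5.63 and 6.71, the sarcomere list lies to the left with a median of -7.28, and the HSP70 and J-domain lists have medians of -0.16 and -0.32.

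Receptor tyrosine kinases, the growth factor receptors at the cell surface, were represented by different members in the 2 lines. Of 48 receptor tyrosine kinases tested, 25 were called higher in ES8, 15 were called higher in Rh30 and 8 were not called (median log2 difference 1.4). KIT, the stem cell factor receptor, had 184, 178 and 179 CPM in ES8 and 0.0761, 0.0236 and 0.0968 CPM in Rh30 (log2 difference 11.38 ± 0.12, edgeR adjusted p = 1.2e-46). ROR2, a Wnt5a receptor, had 26.4 against 0.0159 CPM, and PDGFRA and EPHA8 had 3.31 and 2.57 CPM in ES8 and no count in Rh30. AXL (ENSG00000167601, chr19:41219203-41261766), the receptor of GAS6, had 15.9, 15.3 and 15 CPM in ES8 and 769.7, 727 and 726 CPM in Rh30 (log2 difference -5.59 ± 0.06, edgeR adjusted p = 3.6e-47). No library of the other line came near the higher line for KIT or AXL. Lack of overlap alone was common, at 45.8% of all genes tested with ES8 above and 42% with Rh30 above. MUSK, the agrin-responsive receptor of the neuromuscular junction, had 0.0568 against 16.8 CPM, and CSF1R, TIE1 and TEK, receptors best known from macrophages and endothelium, had 0.243 against 28.9 CPM, 0.0852 against 22.7 CPM and 0.0351 against 1.78 CPM. IGF1R, the receptor of insulin-like growth factors, had 93.4, 99.7 and 96.1 CPM in ES8 and 90.7, 81.9 and 85.4 CPM in Rh30 and a log2 difference of 0.16 ± 0.05.

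To compare receptors with each other, levels were divided by gene length (RPKM, mean of 3 libraries), and the receptors at the top of each line were picked after their values were seen. In ES8 the highest were EPHB4 at 92 RPKM, EPHA2 at 56.1, EPHB3 at 33.3, DDR2 at 32.5 and KIT at 32.4. In Rh30 they were AXL at 144, FGFR4 at 111, PTK7 at 53.9 and MET at 24.3. The ephrin receptors EPHB4 and EPHA2 still reached 16.4 and 15 RPKM in Rh30, whereas KIT reached 0.0118 RPKM there.

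**Figure D3:**
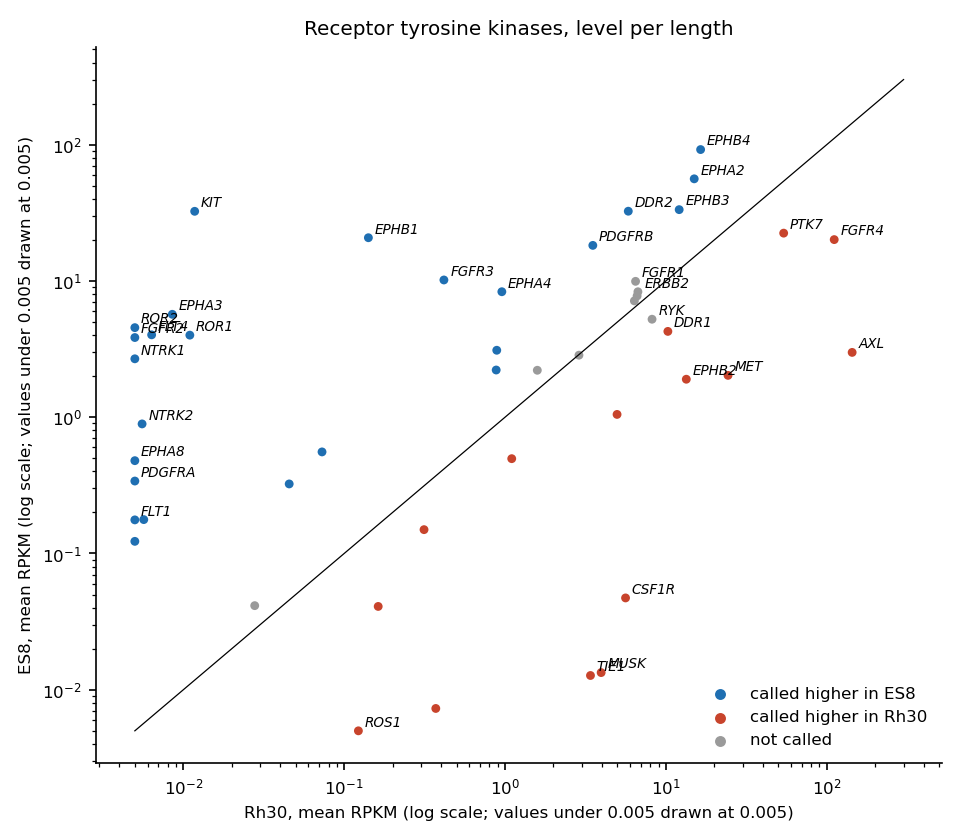
Level per length of the 48 receptor tyrosine kinase genes tested, as mean RPKM over 3 libraries on log axes, Rh30 on the horizontal and ES8 on the vertical axis, with equality as a line. KIT, EPHB4 and EPHA2 lie above the line and AXL, FGFR4, PTK7 and MET below it.

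The insulin-like growth factor axis leaned to ES8 through its binding proteins. Of 17 genes of the axis tested, 10 were called higher in ES8, 1 was called higher in Rh30 and 6 were not called (median log2 difference 1.74). The share called was 64.7%, beside 50.9% of all genes tested. IGFBP2, IGFBP4 and IGFBP5, secreted proteins that hold the growth factors, had 205 against 0.558 CPM, 129.6 against 0.547 CPM and 53 against 0.385 CPM. The ligand gene IGF2 was the 1 member called higher in Rh30, at 8.74, 8.57 and 7.42 CPM in ES8 and 76.7, 67.9 and 73.9 CPM in Rh30 (log2 difference -3.14 ± 0.07, edgeR adjusted p = 2.4e-35), and IGF1 had 0.671, 0.563 and 0.535 CPM in ES8 and no count in Rh30. H19, the imprinted RNA next to IGF2, showed the opposite pattern to IGF2, with 1.72, 2.05 and 1.67 CPM in ES8 and no count in Rh30, at least 24.7-fold higher in ES8.

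LIN28B, which blocks the maturation of let-7 microRNAs, and 4 genes listed as let-7 targets were higher in ES8. Of 11 let-7 regulators and targets tested, 5 were called higher in ES8, none were called higher in Rh30 and 6 were not called (median log2 difference 0.28). The share called was 45.5%, all higher in ES8, beside 50.9% of all genes tested, 28.7% higher in ES8. LIN28B (ENSG00000187772, chr6:104936616-105083332) had 73.2, 64.9 and 69.9 CPM in ES8 and 0.0761, 0.0709 and 0.145 CPM in Rh30 (log2 difference 9.43 ± 0.14, edgeR adjusted p = 6.9e-42). HMGA2 and HMGA1, chromatin architectural proteins, had 445, 419 and 430.2 CPM in ES8 and 19, 18.7 and 18.5 CPM in Rh30 for HMGA2 and 757 against 57.2 CPM for HMGA1. IGF2BP1, an oncofetal RNA-binding protein, had 527 against 158 CPM (log2 difference 1.74 ± 0.05), while its relative IGF2BP3 had 69.6 against 57.5 CPM (log2 difference 0.28 ± 0.05). ARID3B, a DNA-binding protein, had 55.2 against 4.63 CPM. LIN28A had 0.0838, 0.203 and 0.309 CPM in ES8 and no count in Rh30 and was not tested.

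MicroRNA host genes, the long transcripts from which microRNAs are cut, were measured in place of the mature microRNAs, which poly-A selected libraries do not capture. Of 17 host genes tested, 6 were called higher in ES8, 6 were called higher in Rh30 and 5 were not called (median log2 difference -0.11), a median that turned to 0.11 with library totals alone. All 3 host genes of miR-9, on chromosomes 1, 5 and 15, were called higher in ES8: MIR9-1HG at 5.51 against 0.0161 CPM, LINC00461 at 1.86 against 0.86 CPM and MIR9-3HG at 3.18 against 0 CPM. The let-7 hosts split, with MIRLET7BHG, which spans let-7a-3 and let-7b, at 2.78 against 0.253 CPM, and MIR100HG, which spans miR-100, let-7a-2 and miR-125b-1, at 1.47, 1.06 and 0.884 CPM in ES8 and 8.01, 8.68 and 10.02 CPM in Rh30 (log2 difference -2.97 ± 0.15, edgeR adjusted p = 4.9e-22). MIR193BHG and MIR210HG were higher in Rh30, at log2 differences of -4.26 and -3.02. LINC00461 is named here because it completes the miR-9 set and was chosen after its value was seen. The mature sequences (RefSeq, GRCh38.p14) cut from hosts called in either direction, except MIR4435-2HG, which was not matched to one, are shown because they tell which hosts feed the same seed, the bases 2 to 8 that pair with targets, here in capitals:
hsa-miR-9-5p: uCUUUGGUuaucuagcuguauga
hsa-let-7a-5p: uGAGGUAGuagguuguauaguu
hsa-let-7b-5p: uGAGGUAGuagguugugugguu
hsa-miR-100-5p: aACCCGUAgauccgaacuugug
hsa-miR-125b-5p: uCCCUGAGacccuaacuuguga
hsa-miR-17-5p: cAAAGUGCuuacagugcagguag
hsa-miR-20a-5p: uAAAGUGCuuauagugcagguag
hsa-miR-18a-5p: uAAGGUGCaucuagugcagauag
hsa-miR-19a-3p: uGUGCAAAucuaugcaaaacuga
hsa-miR-19b-3p: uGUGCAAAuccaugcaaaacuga
hsa-miR-92a-3p: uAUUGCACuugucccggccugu
hsa-miR-675-5p: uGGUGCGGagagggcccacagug
hsa-miR-193b-3p: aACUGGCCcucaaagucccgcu
hsa-miR-365a-3p: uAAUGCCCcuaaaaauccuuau
hsa-miR-137-3p: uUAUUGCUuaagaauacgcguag
hsa-miR-210-3p: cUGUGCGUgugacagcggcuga
hsa-miR-29b-3p: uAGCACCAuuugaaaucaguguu
hsa-miR-29c-3p: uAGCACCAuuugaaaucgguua
The miR-9-5p line stands for 3 loci, so 3 host genes that were higher in ES8 encode 1 mature sequence. let-7a-5p lies in hosts of both directions, and let-7b-5p shares its seed. miR-17-5p and miR-20a-5p of MIR17HG, a host at 0.884 against 0.218 CPM that was called higher in ES8 and is named after its value was seen, share a seed as well, and so do its miR-19a-3p and miR-19b-3p. miR-29b-3p and miR-29c-3p, both in MIR29B2CHG, share another.

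In the Wnt pathway, of 38 genes tested, 20 were called higher in ES8, 7 were called higher in Rh30 and 11 were not called (median log2 difference 1.06). FZD9, a receptor, and the feedback inhibitors NKD1 and NKD2 had 11.2 against 0.00806 CPM, 13 against 0 CPM and 12.2 against 0.0317 CPM, and LGR5, a receptor and target, had 4.29 CPM in ES8 and no count in Rh30. The ligand gene WNT9A and the secreted antagonists DKK1 and SFRP1 were higher in Rh30, WNT9A at 1.04 against 17.6 CPM and SFRP1 at 2.04 against 13.4 CPM. In the Hedgehog pathway, of 11 genes tested, 4 were called higher in ES8, 2 were called higher in Rh30 and 5 were not called (median log2 difference 0.59). In all, 54.5% of these Hedgehog genes, near the 50.9% of all genes tested, and 71.1% of the Wnt genes were called. The ligand SHH had 7.56, 7.7 and 7.73 CPM in ES8 and no count in Rh30, the transcription factors GLI2 and GLI3 had 77.9 against 13.9 CPM and 99.6 against 5.68 CPM, and the co-receptors BOC and GAS1 were higher in Rh30, at 0.63 against 30.6 CPM and 50.5 against 176 CPM.

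In the Notch pathway, of 20 genes tested, 6 were called higher in ES8, 9 were called higher in Rh30 and 5 were not called (median log2 difference 0.02). The ligand gene DLL1 and the effectors HEYL and HEY2 were higher in Rh30, at 1.57 against 28.3 CPM, 8.85 against 82.1 CPM and 0.137 against 2.43 CPM, and so was LFNG, which glycosylates Notch receptors, at 9.79, 10.6 and 9.07 CPM in ES8 and 80.7, 73.3 and 74.1 CPM in Rh30. DLL3, HES1, NRARP and the ubiquitin ligase gene DTX1 were higher in ES8, DTX1 at 30.8, 32.4 and 30.5 CPM against no count in Rh30. In the TGF-beta and BMP pathway, of 45 genes tested, 17 were called higher in ES8, 12 were called higher in Rh30 and 16 were not called (median log2 difference 0.44). In all, 64.4% of these genes and 75% of the Notch genes were called, beside 50.9% of all genes tested. The ligand genes GDF6 and BMP7 had 143 against 0.0982 CPM and 31.1 against 0.0159 CPM, while the antagonists GREM1 and FST, which block BMP and activin ligands, had 0.165 against 77.9 CPM and 0.063 against 28.8 CPM.

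The matrix made by the lines differed member by member. Among collagens, of 35 genes tested, 18 were called higher in ES8, 12 were called higher in Rh30 and 5 were not called (median log2 difference 1.06), and among laminins and matrix glycoproteins, of 39 genes tested, 19 were called higher in ES8, 13 were called higher in Rh30 and 7 were not called (median log2 difference 0.91). FN1, the fibronectin gene, had 741, 762 and 747 CPM in ES8 and 5.5, 3.33 and 4.14 CPM in Rh30 (log2 difference 7.44 ± 0.08, edgeR adjusted p = 2.1e-46). FBLN1, a matrix fibulin, had 503 against 0.17 CPM, the proteoglycan gene BGN 269 against 0.129 CPM, and the collagen genes COL11A1, COL21A1 and COL4A5 63.3 against 0.0165 CPM, 52.1 against 0.0236 CPM and 20.7 against 0.033 CPM. Tenascin C, thrombospondin 1 and VCAN, the versican gene at 4.7 against 201 CPM, made up the other side together with LAMA2, the muscle laminin chain, at 1.27 against 27.7 CPM, and COL14A1 and COL15A1, at 0.758 against 46.3 CPM and 1.26 against 26.4 CPM. Each line thus expressed large matrix genes that the other held at a low level.

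Among matrix enzymes, of 39 genes tested, 12 were called higher in ES8, 15 were called higher in Rh30 and 12 were not called (median log2 difference -0.4). The membrane metalloproteinase gene MMP16 had 12.4 against 0.00806 CPM and ADAMTS10 25.2 against 0.00788 CPM, whereas ADAMTS5, an aggrecanase, had 2.82 against 59.3 CPM. Among integrins, the receptors for matrix, of 24 genes tested, 8 were called higher in ES8, 8 were called higher in Rh30 and 8 were not called (median log2 difference 0.03). In all, 66.7% of the integrins and 69.2% of the matrix enzymes were called, beside 50.9% of all genes tested. ITGB6 had no count in ES8 and 35.3, 32.9 and 35.6 CPM in Rh30, ITGA6 and ITGA3, laminin receptor chains, had 10.4 against 119 CPM and 9.63 against 119 CPM, and ITGA2B had 4.53 against 0.0569 CPM.

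In core metabolism, tissue isoforms of enzymes and transporters were among the members called. For glycolysis, of 25 genes tested, 5 were called higher in ES8, 5 were called higher in Rh30 and 15 were not called (median log2 difference -0.45), beside 50.9% of all genes called. PKM, the pyruvate kinase gene, had 2217, 2262 and 2180.4 CPM in ES8 and 6149, 6509.8 and 6779.5 CPM in Rh30 (log2 difference -1.55 ± 0.05, edgeR adjusted p = 5.6e-30). ENO3, the muscle enolase, had 7.08 against 156 CPM and ENO2, the neuronal enolase, 174 against 49.3 CPM. The glucose transporter gene SLC2A1 was higher in Rh30, at 92.9 against 368 CPM, the lactate transporter gene SLC16A3 in ES8, at 59.4 against 9.28 CPM, and PFKFB2 had 9.4 against 0.00845 CPM. For serine and folate-linked carbon metabolism, of 18 genes tested, 6 were called higher in ES8, 2 were called higher in Rh30 and 10 were not called (44.4% called, median log2 difference -0.39). SHMT2 (ENSG00000182199, chr12:57229327-57234935), the mitochondrial serine hydroxymethyltransferase, had 353, 359 and 343 CPM in ES8 and 3351, 3384 and 3489 CPM in Rh30 (log2 difference -3.28 ± 0.05, edgeR adjusted p = 1.2e-41), and PHGDH, which starts serine synthesis, 664 against 312 CPM.

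For arginine, proline and polyamine metabolism, of 24 genes tested, 6 were called higher in ES8, 9 were called higher in Rh30 and 9 were not called (62.5% called, median log2 difference -0.32). Creatine genes moved in different directions: GATM, which makes the creatine precursor, had 0.21, 0.495 and 0.35 CPM in ES8 and 175, 183 and 187 CPM in Rh30 (log2 difference -9.02 ± 0.10, edgeR adjusted p = 5.9e-46), whereas the transporter gene SLC6A8 had 182 against 25.5 CPM and the brain creatine kinase gene CKB 266 against 26 CPM. ASS1, which makes arginine precursors, had 68.6 against 9.36 CPM. For sterol synthesis, of 23 genes tested, 5 were called higher in ES8, 2 were called higher in Rh30 and 16 were not called (median log2 difference 0.22), with CYP51A1 at 64.7 against 4.64 CPM. The share called in sterol synthesis was 30.4%, beside 50.9% of all genes tested. For glutathione and xenobiotic enzymes, of 30 genes tested, 16 were called higher in ES8, 4 were called higher in Rh30 and 10 were not called (median log2 difference 1.18). GSTM2, a member of a family of close copies among which reads may be split, had 29.96 against 0.359 CPM, GPX1 234 against 594 CPM and MGST2 0.0696 against 11.6 CPM.

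The study concerns the HSP70 system, in which HSP70 chaperones refold proteins and J-domain proteins trigger their ATPase. DNAJC17 belongs to the latter, though the paper found that the purified protein stimulated HSP70 only after deletion of its RNA-recognition motif. Of 29 HSP70 chaperones and exchange factors tested, 6 were called higher in ES8, 6 were called higher in Rh30 and 17 were not called (median log2 difference -0.16), a median that turned to 0.05 with library totals alone. The share called was 41.4%, beside 50.9% of all genes tested. HSPA8, the constitutive cytosolic HSP70, had 2436, 2390.4 and 2426 CPM in ES8 and 2107, 2423 and 2805 CPM in Rh30 and a log2 difference of -0.02 ± 0.06, and it was the highest of the list per length in both lines, at 499 RPKM in ES8 and 504 RPKM in Rh30. The stress-inducible genes were higher in ES8: HSPA1A had 32.1, 31.8 and 33.7 CPM in ES8 and 0.355, 0.875 and 0.435 CPM in Rh30 (log2 difference 5.85 ± 0.13, edgeR adjusted p = 6.5e-35) and HSPA1B 39, 36.8 and 36.5 CPM in ES8 and 3.12, 3.5 and 3.34 CPM in Rh30 (log2 difference 3.49 ± 0.08, edgeR adjusted p = 7.2e-34). HSPA1A and HSPA1B are nearly identical, so the split of reads between them is uncertain. HSPA4L, an HSP110 exchange factor, had 30.8, 29.5 and 29.99 CPM in ES8 and 0.0254, 0.0473 and 0.0726 CPM in Rh30, and HSPA2 had 8.56 against 0.113 CPM. HSPA5, the HSP70 of the endoplasmic reticulum, was higher in Rh30, at 517, 514 and 527 CPM in ES8 and 1505, 1542 and 1526 CPM in Rh30 (log2 difference -1.55 ± 0.04, edgeR adjusted p = 7.6e-31), and so were HSPA12A at 10.5 against 58.7 CPM and the exchange factors BAG5 and GRPEL1, at 20.9 against 61.4 CPM and 63.9 against 150.1 CPM.

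Of 44 genes of J-domain proteins tested, 5 were called higher in ES8, 12 were called higher in Rh30 and 27 were not called (median log2 difference -0.32). The share called was 38.6%, beside 50.9% of all genes tested. DNAJC17 (ENSG00000104129, chr15:40765155-40807478), the gene that the other guides of the series target, had 11.7, 13.1 and 12.9 CPM in ES8 and 12, 12.3 and 11.2 CPM in Rh30 and a log2 difference of 0.09 ± 0.08. DNAJA3, the mitochondrial J-domain protein, had 109.5 against 138 CPM (log2 difference -0.34 ± 0.05). DNAJC18 and DNAJC15 were nearly silent in ES8, at 0.0629, 0.135 and 0.144 CPM in ES8 and 27.7, 27.8 and 30.6 CPM in Rh30 for DNAJC18 and 0.21, 0.27 and 0.226 CPM in ES8 and 22.6, 21.6 and 23.2 CPM in Rh30 for DNAJC15. DNAJC12 was higher in ES8, at 25.6 against 6.87 CPM. For small heat shock proteins and HSP90, of 15 genes tested, 2 were called higher in ES8, 2 were called higher in Rh30 and 11 were not called (26.7% called, median log2 difference 0.06). HSPB3 and HSPB7, small chaperones of muscle, were higher in Rh30, at 0.0649 against 2.65 CPM and 0.807 against 8.34 CPM.

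Of 26 cell cycle and p53 regulators tested, 6 were called higher in ES8, 11 were called higher in Rh30 and 9 were not called (median log2 difference -0.7). The share called was 65.4%, beside 50.9% of all genes tested. CDK4 (ENSG00000135446, chr12:57747727-57756013), the cyclin D kinase, had 326, 321 and 307 CPM in ES8 and 6724, 7153 and 7258 CPM in Rh30 (log2 difference -4.47 ± 0.05, edgeR adjusted p = 3.6e-45) and ranked 5 of 14274 protein-coding genes by level per length in Rh30 and 362 in ES8. CDK6, its relative, was also higher in Rh30, at 13.6, 13.9 and 13.7 CPM in ES8 and 217, 202 and 217 CPM in Rh30 (log2 difference -3.95 ± 0.06, edgeR adjusted p = 4.5e-42). CDKN2A (ENSG00000147889, chr9:21967753-21995301), which encodes the CDK4 and CDK6 inhibitor p16, had 0.126, 0.09 and 0.144 CPM in ES8 and 355, 412 and 381 CPM in Rh30 (log2 difference -11.60 ± 0.11, edgeR adjusted p = 3.4e-48). ES8 thus held the higher CCND1 and the lower CDK4, CDK6 and CDKN2A. CDKN1C, an imprinted inhibitor, had 19.7 against 0.0165 CPM, and MDM2, the p53 ligase, 122, 110.3 and 120.3 CPM in ES8 and 40.6, 40.9 and 42.2 CPM in Rh30 (log2 difference 1.51 ± 0.05, edgeR adjusted p = 9.5e-28).

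CDK4 did not stand alone on its chromosome. Of 23 listed genes of 12q13-q15 tested, 5 were called higher in ES8, 14 were called higher in Rh30 and 4 were not called (median log2 difference -2.02). On this list 60.9% were called higher in Rh30, beside 22.2% of all genes tested. The region as a whole leaned less: of all 110 genes tested from 55 to 60 Mb, 39 were higher in Rh30 and 21 in ES8. Their median log2 difference was 0.06. In a stretch from OS9, which starts 0.0537 Mb before CDK4, to ATP23, which starts 0.194 Mb after it, OS9 had 209 against 2399 CPM, AGAP2 9.9 against 233 CPM, MARCHF9 27.4 against 611 CPM, METTL1 21.4 against 432 CPM, TSFM 47.5 against 629 CPM, AVIL 2.09 against 85 CPM and ATP23 7.99 against 134 CPM. Of the 19 genes tested in this stretch, 17 were called higher in Rh30, the non-coding gene ENSG00000257953 was called higher in ES8 with a log2 difference of 4.07, and ENSG00000269903 was not called. Directions alternated on the near side. There KIF5A and B4GALNT1 were higher in ES8, at 4.11 against 0.0321 CPM and 101 against 17.6 CPM, ARHGAP9, MARS1, DDIT3 and ARHGEF25 were higher in Rh30, at log2 differences of -2.70, -2.02, -1.06 and -1.17, and GLI1 was not called. LRP1, SHMT2 and INHBE, farther out on the same arm, were higher in Rh30, at log2 differences of -2.09, -3.28 and -5.92, while R3HDM2 and STAT6 were not called. MDM2 and HMGA2, beyond the stretch, were higher in ES8. The genes of this stretch were picked after their values were seen, and no DNA measurement was analysed here.

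A second stretch lay on chromosome 9. From MTAP to ELAVL2 (chr9:21802543-23826337), 7 neighbouring tested genes together had 30 counts over the 3 ES8 libraries and 54770 over the 3 Rh30 libraries. MTAP, a housekeeping enzyme of methionine salvage, had 4 counts in all ES8 libraries and 4539 in Rh30, CDKN2A 17 and 47198, CDKN2B 6 and 1101, and ELAVL2 3 and 1696. Next to it KLHL9 had a log2 difference of 0.19 and TUSC1, on the far side, 2.06. The same 7 genes had 21 counts in the ES8 libraries with sgDNAJC17 and 59598 in the corresponding Rh30 libraries, and 53 and 66486 in ΔRRM cells. Among 5 Mb bins with at least 10 genes tested, the bin of this stretch had the lowest median log2 difference, -7.50 over 13 genes. The lowest median was -2.01 in 10 Mb bins and -1.93 where every library had to reach 10 counts.

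**Figure D4:**
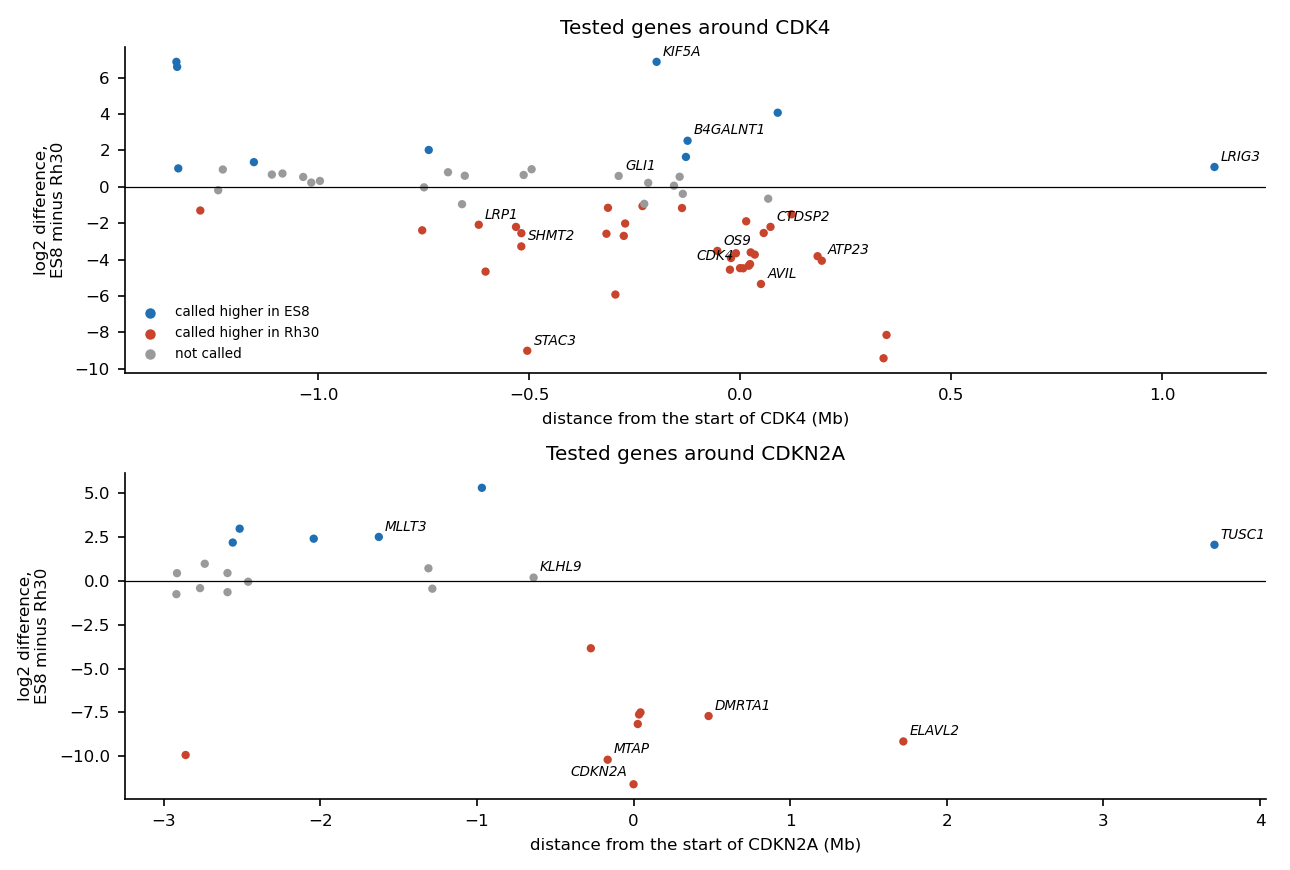
The log2 difference of every tested gene by its distance in Mb from the start of CDK4 (upper plot) and CDKN2A (lower plot), coloured by call. Of 19 genes from OS9 to ATP23, 17 lie low like CDK4 at -4.47 and 1 lies high at 4.07, and genes from MTAP to ELAVL2 lie low around CDKN2A at -11.60, with KLHL9 and TUSC1 on either side at 0.19 and 2.06.

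Runs of neighbouring genes were searched genome-wide after these stretches had been seen, as 5 or more consecutive tested genes with at most 10 counts per library on average in 1 line and at least 20 in the other. The search gave 16 runs, 14 of them low in Rh30 and 2 low in ES8. In the sgDNAJC17 libraries it gave 8 runs, and the 1 low in ES8 lay on chromosome 1. In the ΔRRM libraries it gave 10, of which 0 were low in ES8. The chromosome 9 stretch thus formed no run in either set. UBA52P6 within it had 34 and 13 counts over the 3 Rh30 libraries of each set, under the 20 per library required. CDKN2A also had 45 counts over the 3 ΔRRM ES8 libraries, above the 10 per library allowed. Of the sgCTL runs, the longest held 14 protocadherin alpha genes on chromosome 5, which share their last exons, with 9856 counts in ES8 and 23 in Rh30. NKX2-2 lay in another, beside PAX1 and 3 non-coding genes, with 17001 counts in ES8 and 0 in Rh30. Over whole chromosomes the median log2 difference was lowest on chromosome 14, at -0.64, and highest on chromosome 21, at 0.57, and chromosome 7, at 0.53.

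Antigen presentation and interferon genes were called at about the rate of all genes, 48.6% beside 50.9%. Of 35 genes tested, 9 were called higher in ES8, 8 were called higher in Rh30 and 18 were not called (median log2 difference -0.13), a median that turned to 0.08 with library totals alone. The immunoproteasome genes PSMB8 and PSMB9 and the class I transactivator gene NLRC5 were higher in Rh30, at 5.75 against 30.7 CPM, 2.57 against 32.1 CPM and 2.67 against 36.2 CPM. The RNA sensor gene IFIH1 and the interferon-induced genes IFITM1 and MX1 were higher in ES8, at 8.01 against 0.0574 CPM, 22.1 against 0.0985 CPM and 1.66 against 0 CPM. PDCD1LG2, which encodes the checkpoint ligand PD-L2, had no count in ES8 and 66, 60.9 and 59.4 CPM in Rh30. Of 40 cancer-testis genes in the files, only 6 passed the filter on low counts, and of these 4 were called higher in ES8 and 2 in Rh30 (6 in Rh30 with no filter, 4 when ES8 replicate A, B or C was left out), MAGEC2 having no count in ES8 and 6.62, 7.35 and 7.45 CPM in Rh30.

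Imprinted genes, which are expressed from 1 parental copy, often lay at or near 0 in 1 of the lines. Of 22 imprinted genes tested, 8 were called higher in ES8, 9 were called higher in Rh30 and 5 were not called (median log2 difference -0.37). PEG3 had no count in ES8 and 43.1, 34.8 and 41 CPM in Rh30, and PLAGL1, MEG3 and MEG8 were also higher in Rh30, at 7.41 against 125 CPM, 3.66 against 47.3 CPM and 0.0432 against 6.25 CPM. GRB10, which dampens insulin receptor signalling, NDN, MAGEL2 and DLK1 were higher in ES8, at 121 against 0.097 CPM, 16.6 against 0.00806 CPM, 3.1 against 0 CPM and 3.02 against 0 CPM. MEG3 and DLK1, neighbours on chromosome 14, therefore differed in opposite directions, as did H19 and IGF2 on chromosome 11.

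The order of the gene classes by share called turned with the filter on low counts, which a gene can pass through the 1 line where it is high. Of 2352 lncRNA genes tested, 68.2% were called, 35.03% higher in ES8 and 33.2% higher in Rh30, against 47.5% of 14274 protein-coding genes and 50.9% of all. With no filter, 33.7% of 8082 lncRNA genes and 43.6% of 17451 protein-coding genes were called. EWSAT1, an RNA first described in Ewing sarcoma, had 32.2, 31.8 and 32 CPM in ES8 and 0, 0.0236 and 0.0484 CPM in Rh30, 1312-fold (95% counting interval 449 to 6365) higher in ES8. CYTOR had 11.9 against 137 CPM and the small nucleolar RNA host SNHG5 56.2 against 148 CPM. CDK6-AS1, which overlaps the CDK6 locus, had no count in ES8 and 93.8, 102 and 102 CPM in Rh30, the largest difference of any lncRNA with at least 100 mean counts. The library kit is not known to mark strand, so its reads and those of CDK6 cannot be told apart. Other lncRNA genes absent from 1 line were TRHDE-AS1 and LINC00960, at 20.4 and 6.21 CPM in ES8 only, and LINC02073 and LINC01537, at 51.7 and 42.8 CPM in Rh30 only.

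The protein-coding genes with the largest differences were mostly silent in 1 line, which a ranking by log2 difference favours. PLPPR3, TMEFF2, DCHS2 and TMEM229A had 80.5, 51, 43.5 and 40 CPM in ES8 and no count in Rh30. HPS1, a subunit of a complex that builds lysosome-related organelles and that most cells express, had 29.9, 30.9 and 30.03 CPM in ES8 and no count in any Rh30 library, at least 414-fold higher in ES8. F13A1, a coagulation factor subunit, had no count in ES8 and 141, 136 and 149 CPM in Rh30, at least 2215-fold higher, and SGCD, a sarcoglycan of the muscle membrane, had none and 52.4 CPM. IGLC2, an immunoglobulin light chain constant segment with close copies, had none and 37.2 CPM.

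Markers of other cell types were read as a check on the cells. Of 9 epithelial markers tested, 5 were called higher in ES8 (9 with no filter) and 4 in Rh30, with summed levels over the 16 listed of 322 to 331 CPM in ES8 and 275 to 296 CPM in Rh30. JUP, KRT18 and KRT8 had 247 against 0.654 CPM, 23.8 against 0.259 CPM and 11.6 against 0.88 CPM, whereas CLDN4, KRT7 and PERP had 0.954 against 101 CPM, 0.0285 against 59.2 CPM and 4.61 against 92.4 CPM. EPCAM had 147 and CDH1 26 counts over the ES8 libraries and 17 and 4 over the Rh30 libraries. The 10 haematopoietic markers summed to 21.2 to 23.3 CPM in ES8 and 17.8 to 19.2 CPM in Rh30, with PTPRC, the pan-leukocyte gene, at 10 and 2 counts in all, and the 8 endothelial markers to 3.04 to 3.29 and 23.8 to 29.3 CPM, mostly from TIE1, with CDH5 at 50 and 2 counts. The part of these markers in the differences above was not tested.

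The difference between the lines was measured again in libraries that share no sample with those above: 3 against 3 with sgDNAJC17, and 3 against 3 in ΔRRM cells with sgDNAJC17. Of the sgCTL calls that were tested in both, 95.2% of those higher in ES8 and 91.5% of those higher in Rh30 were called the same way with sgDNAJC17, and 93.2% and 87.9% in ΔRRM cells. With sgDNAJC17, 30.5% of 17665 genes were called higher in ES8 and 22.7% higher in Rh30 (53.2% in all). In ΔRRM cells, 32.7% of 17700 were called higher in ES8 and 25.9% higher in Rh30 (58.6% in all). Only 1 gene was called in the opposite direction in each set, MAF with sgDNAJC17 (log2 difference -1.84 in sgCTL and 1.07 there) and TGM1 in ΔRRM cells (-1.42 and 1.66), both named after their values were seen. All 3 sets called 7379 of the 17925 genes tested in sgCTL in the same direction. Among them were 28 of the 31 tested EWSR1-FLI1 activated genes, 25 of the 26 sarcomere and muscle genes and 18 of the 23 genes of 12q13-q15. The 28 include the 3 activated genes called higher in Rh30. Shares were lower for J-domain proteins (14 of 44), HSP70 chaperones and exchange factors (11 of 29) and sterol synthesis (5 of 23). Across genes, which are not independent replicates, the log2 differences correlated with those in sgCTL at Pearson's r = 0.978 with sgDNAJC17 and 0.969 in ΔRRM cells. CDK4 had log2 differences of -4.47, -4.56 and -4.38 in the 3 sets, MYOD1 -10.84, -10.85 and -9.23, FLI1 10.32, 10.16 and 10.92, and HSPA8 -0.02, -0.70 and -0.61. A test of the interaction of line with sgRNA, over all 12 parental libraries, called 1.26% of 18899 genes, 0.714% with the ES8 minus Rh30 difference higher with sgDNAJC17 and 0.55% with it lower. Of 274 named genes tested in it, 11 were called, KRT8 and KRT18 with the smallest adjusted p.

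**Figure D5:**
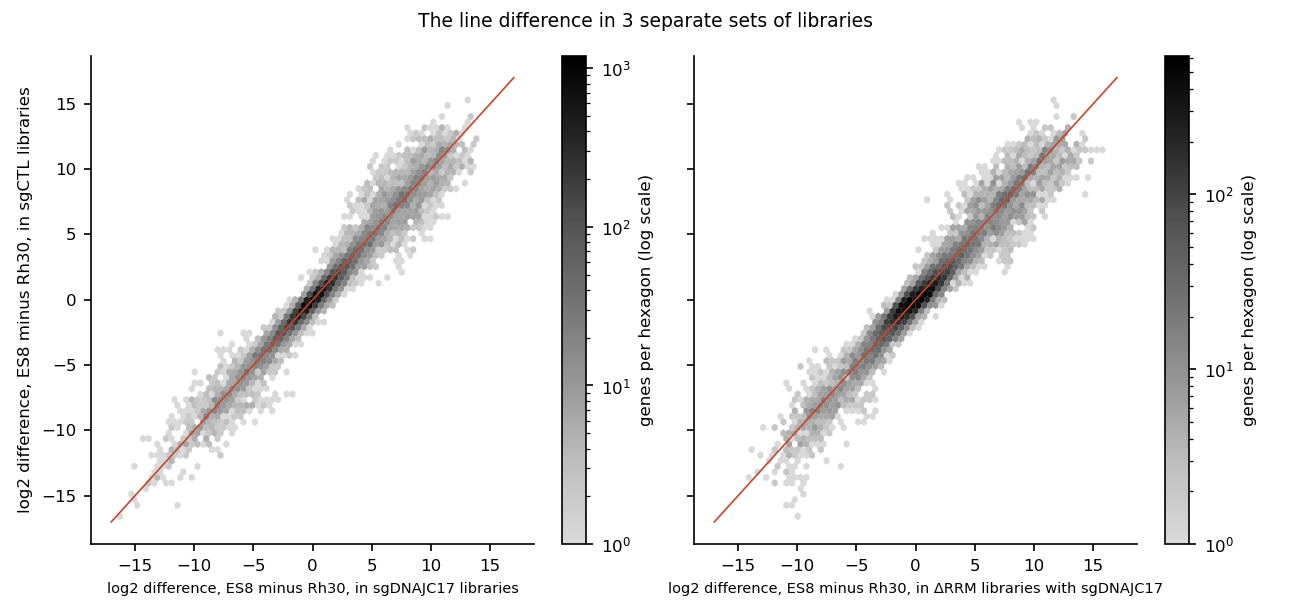
The log2 difference between ES8 and Rh30 of each gene in the sgCTL libraries (vertical axis) against the same difference in the sgDNAJC17 libraries (left) and in ΔRRM libraries with sgDNAJC17 (right), with darker hexagons holding more genes on a log scale and equality as a red line. Genes lie along the line in both plots, at Pearson's r = 0.978 and 0.969.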

How the data were processed

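RNA was collected from 18 libraries, of which the 6 parental sgCTL libraries form the comparison and the other 12 serve as repeats. The authors deposited 1 table per library with raw counts of reads per gene, without normalization, after poly-A selection. The submitters' processing notes name Trimmomatic 0.36, STAR 2.5.2b and featureCounts of Subread 1.5.2, and the strand setting of the counting is not given in the sources used here. The paper's methods name an older build, but the starts of 85.4% of 19054 protein-coding genes matched GRCh38 to 1 kb, against 4.05% of 19583 for GRCh37, so coordinates are given as GRCh38. Of 57500 genes, 55082 took a symbol by identifier, 653 by exact RefSeq position and 1765 none.

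Counts were fitted with edgeR 4.0.16 in R 4.3.3 (filterByExpr, TMM scaling, quasi-likelihood test, two-sided, Benjamini-Hochberg adjustment over all genes tested), with line as the only term. The same fit was made in the sgDNAJC17 and the ΔRRM libraries, and the interaction of line with sgRNA over the 12 parental libraries was called at an adjusted p under 0.05 and a log2 size of at least 1. On simulated counts for 17417 genes, all 100 genes changed by 2 and all 100 changed by 3 on the log2 scale were called, with 1 unchanged gene called. The changed genes had means above 2 CPM and were as often up as down. In the data 50.9% of genes were called and some lay at 0 in 1 line. The simulation therefore cannot vouch for the scaling or for such genes. A fold against a line with no count was computed against a floor of 3 counts per library, and a fold against 1 to 3 counts carries a 95% interval. Floors and intervals cover counting error only. Median log2 differences over 5 Mb bins used bins with at least 10 genes tested.

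Genes were named by a rule: a short list of fusion, lineage, growth factor, cell cycle and chaperone genes, up to 4 called members per list and direction with the largest difference at 1 CPM or more, and the 10 protein-coding and 5 lncRNA genes with the largest difference per direction at a mean of 100 counts or more. Other names are marked as chosen after their values were seen. The members, the 38 gene lists and the rule were chosen with earlier results of these data known. Alternatives were DESeq2 1.42.0, its size factors in edgeR, library totals, other filters and thresholds, all 18 libraries in 1 fit, a length correction, a block for the replicate letter, and fits that each lacked 1 library. The paper's own comparisons were not used.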

Additional observations from a re-analysis of the deposited data

Results flagged for a closer look

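The line difference was not the same with sgDNAJC17 as with sgCTL for 11 of the 274 named genes tested, by the edgeR test of the interaction over the 12 parental libraries, beside 239 of 18899 genes (1.26%) over all. Each value below is the line difference (ES8 minus Rh30, log2) with sgDNAJC17 minus that with sgCTL. The keratin genes KRT8 and KRT18 had -3.47 (SE 0.22, edgeR adjusted p = 6.9e-09) and -3.66 (SE 0.28, adjusted p = 1.8e-07), their line differences going from 3.72 to 0.30 and from 6.502 to 2.89. COL7A1, a collagen of anchoring fibrils, had 1.38 and AVIL, an actin-binding gene near CDK4, 1.06, so both were less far above ES8 in Rh30 with sgDNAJC17. The BMP ligand gene BMP7 had -4.21, the adhesion gene NCAM2 -5.27 and the ligand gene GDF6 2.99. These 3 genes lay below 0.1 CPM in the Rh30 sgCTL libraries, so their values rest on few counts there. Levels there were also low for KRT18, with 32 counts over the 3 libraries, and for KRT8, HSPA1A and GSTM2, below 1 CPM on average. The stress-inducible chaperone gene HSPA1A had 1.65 (adjusted p = 0.013), its line difference going from 5.85 to 7.55, the sterol reductase gene TM7SF2 -1.06, the microRNA host MIR100HG -1.001 and the glutathione transferase gene GSTM2 1.34 (adjusted p = 0.0495). The count of such named genes was 10 or 11 under DESeq2, its size factors, library totals alone and the replicate block, alternatives chosen after seeing the data. The cause of these differences was not tested.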

How the results depend on the processing

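Of 273 named genes tested, 270 had the same call under DESeq2, its size factors, library totals, no filter, the replicate block and each fit lacking 1 library, and ALK, TUBB3 and NCAM1 lost theirs with library totals alone, at log2 differences of -0.85, -0.93 and -0.87. ALK also lost it without ES8 replicate C (-0.94) or Rh30 replicate C (-0.97). No direction was reversed under them. The counts of genes higher in ES8 and in Rh30 (5148 and 3981) were 8164 and 7526 with no fold requirement and 2470 and 2398 where every library had to reach 10 counts, which removes genes at 0 in 1 line. Under the latter the counts were 2786 and 2390 with sgDNAJC17 and 3149 and 2941 in ΔRRM cells, and without a fold requirement those higher in Rh30 were 6863 and 7135. With no filter, 6 cancer-testis genes were higher in Rh30, 9 epithelial markers were higher in ES8 and 33.7% of lncRNA genes were called, since more genes were tested. Leaving out 1 library gave 2 to 4 cancer-testis genes higher in Rh30. With library totals alone, 4 myogenic regulators were higher in ES8 and 1 neuronal effector in Rh30, the share of calls higher in ES8 went from 56.4% to 62.7%, and in ΔRRM cells from 55.7% to 66.3%. Of 76 counts over the gene lists, 72 stayed within 1.5 times under those same alternatives. The lowest and highest bin medians were -2.01 and 2.499 in 10 Mb bins and -1.93 and 1.59 where every library had to reach 10 counts. The search for runs of low genes, chosen after seeing the data, gave 8 runs in the sgDNAJC17 and 10 in the ΔRRM libraries in place of 16. Correction for GC content was not run for want of a genome of the files' build, and gene length alone was used (4993 and 4084 genes).

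The replicate letters were not treated as pairing the lines. Correlations of same-letter deviations were -0.03, -0.02 and 0.01 in sgCTL, 0.113, -0.03 and 0.105 with sgDNAJC17, and -0.05, -0.08 and 0.01 in ΔRRM cells. These values cannot show how the replicates were handled. The fit with the replicate block gave 5141 genes higher in ES8 and 3976 higher in Rh30 and changed no call of a named gene.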

Other observations

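Other runs of neighbouring genes low in Rh30 held protein-coding genes of different kinds. On chromosome 21 (chr21:39745407-41767106), 7 neighbours that include PCP4, DSCAM, a neuronal adhesion gene, BACE2, a membrane protease, MX1 and RIPK4 had 18109 counts over the 3 ES8 libraries and 44 over the 3 Rh30 libraries. On the X chromosome (chrX:37571569-37949405), LANCL3, XK, CYBB, the phagocyte oxidase subunit, DYNLT3 and a non-coding neighbour had 7177 and 18 counts. On chromosome 1 (chr1:206767602-207081024), IL10, FCMR, C1orf116, PFKFB2 and YOD1 had 4013 and 3. On chromosome 5, 6 protocadherin gamma genes, which like the alpha genes share their last exons, had 7203 and 27. These runs were named after their values were seen, and no DNA measurement was analysed here.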
